A study of Mus musculus with 20 samples.

Results

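Genes encoding the enzymes of glycolysis and of the citric acid cycle were described across 4 groups of mice that differed in the expression of the HIV-1 protein Tat and in treatment with methamphetamine (Meth). The 42 genes were listed by function: 16 encode the enzymes that convert glucose to pyruvate and lactate, and 26 encode the pyruvate dehydrogenase complex and its regulators, the citric acid cycle and the enzymes that feed it or draw from it. All 42 were among the 20966 genes with a probe on the array and among the 15098 that reached the limit on signal, and their brightest probes were well above background on all 20 arrays, with none saturated.

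The mice were C57BL/6J males, given in the labels as 6 to 7 weeks old, and all received doxycycline (100 mg/kg, i.p., for 7 days), which switches on the Tat transgene where it is present. Tat+ mice carried Tat under a doxycycline-dependent promoter together with a Tet-binding protein driven by the astrocyte promoter GFAP. Tat− mice carried only the GFAP-driven Tet-binding protein. By this design Tat expression is directed to cells that use that promoter. The study raises a possible leaky Tat expression, and where Tat was expressed was not examined here. Mice received Meth (2 mg/kg) or saline for 7 days, which gave 4 groups of 5 arrays (Tat−/Sal, Tat+/Sal, Tat−/Meth, Tat+/Meth) and a different mouse number for every array in the labels. The labels give the left hemisphere of the perfused brain, taken 24 h after the last injection, as the tissue. The study's methods describe instead mice of 3 to 5 months, 7 days of abstinence, a Meth challenge (1 mg/kg) of every group and the caudate putamen 1 h later, and these accounts could not be reconciled here.

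The arrays lay on 3 slides, and all 5 Tat−/Meth arrays were alone on slide 1. Tat−/Sal shared slide 2 with 3 arrays of Tat+/Meth, and Tat+/Sal shared slide 3 with the remaining 2. On slide 1 the bright corner control spots read 14.66 to 15.06 log2 units, against 16.80 to 17.42 elsewhere. The 75th percentile of the arrays spanned 0.70 log2 units in all, with the Tat−/Meth arrays at the low end (9.64 to 9.79). Slide 2 lay above them (lowest array 9.92, highest 10.33), and slide 3 overlapped them slightly (lowest 9.75, highest 10.24). Bringing the arrays to a common 75th percentile therefore raised Tat−/Meth relative to most other arrays. In every comparison with Tat−/Meth, the effect of the group and that of the slide cannot be told apart. Of 10 markers of striatal medium spiny neurons, all were well above background on the 5 Tat−/Sal arrays. In tissue of many cell types, fewer cells of a type and less RNA per cell cannot be told apart.

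Glycolysis splits glucose into pyruvate in the cytosol, with ATP made at the phosphoglycerate kinase and pyruvate kinase steps, and lactate dehydrogenase interconverts pyruvate and lactate. In mitochondria, the pyruvate dehydrogenase complex turns pyruvate into acetyl-CoA, which citrate synthase condenses with oxaloacetate to start the citric acid cycle. In brain, several steps have isoforms that differ between cell types: *Eno2* is the enolase of neurons and *Eno1* that of glia and other cells, and succinyl-CoA synthetase uses either the ATP-forming subunit *Sucla2* or the GTP-forming subunit *Suclg2*.

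The promoters of 3 genes are shown because the results turn on them: *Dlst* had the largest rise and *Eno1* the largest fall of the 42 in Tat−/Meth vs. Tat−/Sal, and *Gapdh* served as a reference gene in the study's qPCR. Each is the RefSeq window of 250 bases before to 50 bases after the annotated start, on build GRCm38.p6, 5′ to 3′ on the strand of the gene. Capitals mark ACGTG, the core of the hypoxia response element, or GGGCGG, the GC box, on either strand. The windows are chr12:85110583-85110882 on the + strand for *Dlst*, chr4:150236458-150236757 on the + strand for *Eno1* and chr6:125165724-125166023 on the - strand for *Gapdh*.
Dlst: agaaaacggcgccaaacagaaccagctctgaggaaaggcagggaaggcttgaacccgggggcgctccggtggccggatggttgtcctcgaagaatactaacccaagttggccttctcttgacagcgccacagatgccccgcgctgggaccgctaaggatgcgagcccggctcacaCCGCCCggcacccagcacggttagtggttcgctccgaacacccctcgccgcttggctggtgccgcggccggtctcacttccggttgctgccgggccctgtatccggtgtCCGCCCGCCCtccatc
Eno1: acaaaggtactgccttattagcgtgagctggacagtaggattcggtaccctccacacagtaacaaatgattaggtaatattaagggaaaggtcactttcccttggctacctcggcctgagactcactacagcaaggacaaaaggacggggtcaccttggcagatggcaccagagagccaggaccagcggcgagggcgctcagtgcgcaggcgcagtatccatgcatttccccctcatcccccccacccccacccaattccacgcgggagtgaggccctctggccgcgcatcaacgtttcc
Gapdh: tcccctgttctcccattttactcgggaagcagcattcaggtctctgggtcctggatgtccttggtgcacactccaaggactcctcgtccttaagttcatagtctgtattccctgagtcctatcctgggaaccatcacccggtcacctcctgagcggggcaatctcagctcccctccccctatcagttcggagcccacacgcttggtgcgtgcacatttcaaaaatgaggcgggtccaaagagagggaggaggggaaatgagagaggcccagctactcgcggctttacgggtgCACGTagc
The *Dlst* window held 3 GC box matches, 2 of which overlap, the *Gapdh* window held 1 ACGTG match, and the *Eno1* window held neither. With the first listed start of each gene, a window was found for 40 of the 42 genes. ACGTG occurred in 37.5% of the 16 glycolysis windows and 33.3% of the 24 others, against 19.7% of 27025 genes, and GGGCGG in 56.2% and 75% against 35.9%. These matches describe the letters of the windows only, and the 2 motifs share no base in the windows shown.

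**Figure D1:**
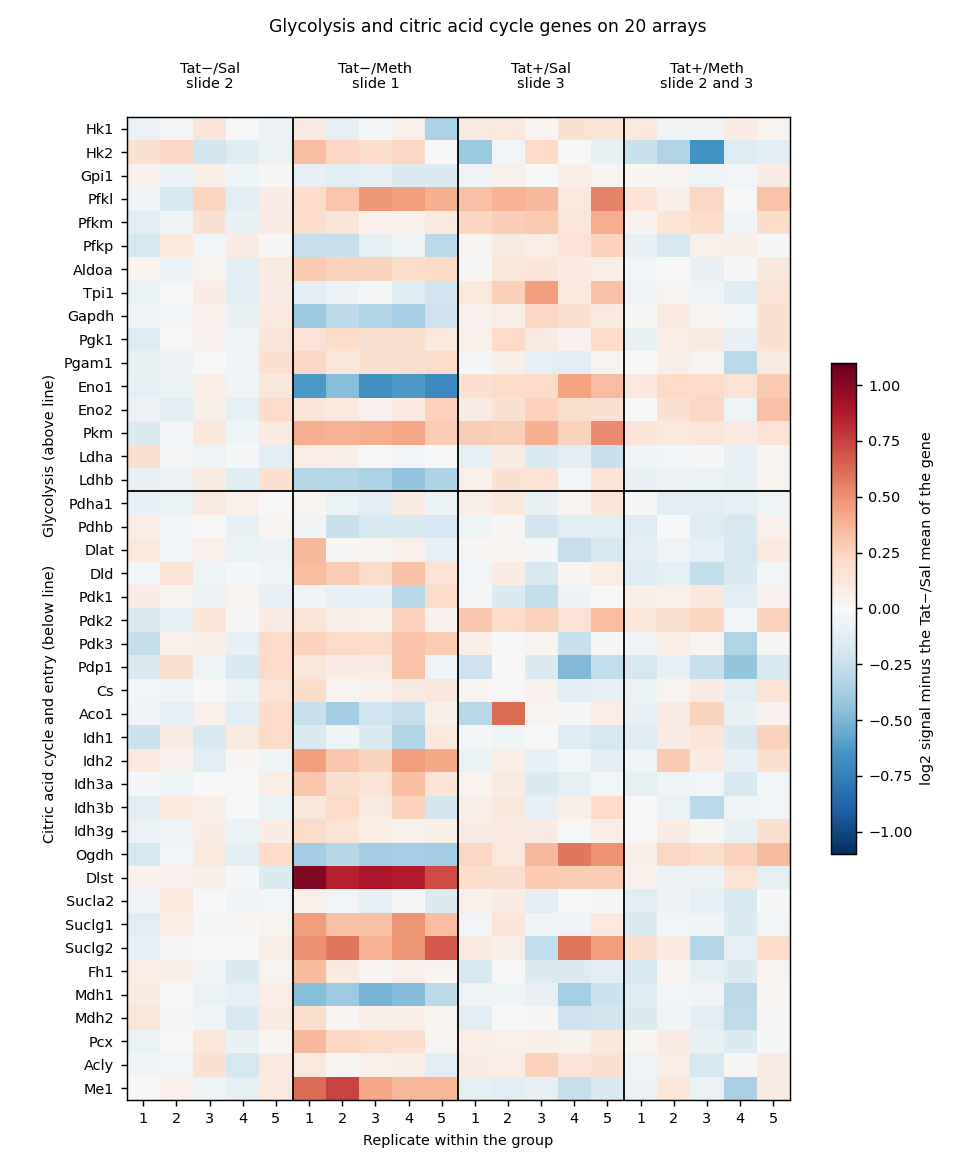
Log2 signal of the 42 genes (rows) on the 20 arrays (columns, by group and replicate) minus the mean of the Tat−/Sal arrays for that gene, in log2 units by colour. *Dlst* is highest and *Eno1* lowest in the 5 Tat−/Meth columns, which form slide 1, and the Tat+/Sal and Tat+/Meth columns stay closer to Tat−/Sal.

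Tat−/Meth vs. Tat−/Sal was compared to ask what Meth changed in the absence of Tat. Both pathways split: 14 of the 42 genes were higher and 8 were lower in Tat−/Meth. Glycolysis had 5 higher, 5 lower and 6 that did not pass, and the genes from pyruvate to the citric acid cycle had 9 higher, 3 lower and 14 that did not pass. The count has to be read against a background of 50.3% of all 15098 genes past an adjusted *p* of 0.05, with 35% higher and 15.3% lower, so that the share of these genes past the test is near that of all genes. None of the 42 exceeded 2-fold, which 6.85% of all genes did. The median log2 fold change was 0.069 for glycolysis and 0.10 for the other list, against 0.14 for all genes, and 15 of the 42 lay above the median of all genes.

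How many genes passed in each direction depended on the scaling of the arrays. The counts were 20 higher and 5 lower with quantile normalization, 7 and 1 with scaling to the median, and 1 and 28 without scaling, where the median of all genes moved to 0.15, 0.26 and -0.28. Of all genes, 52.1%, 28.1% and 48% passed in turn, against 50.3% in the main fit. *Dlst* and *Eno1* passed in the same direction under each of the 14 alternative ways of processing or testing this comparison and without each array in turn, and no other gene of the 42 did. Both genes had a single probe, so the settings that change the probe rule left their values unchanged. Whether other probes would give the same result could not be tested for them.

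In the upper steps of glycolysis, *Pfkl* rose, *Gpi1* and *Pfkp* fell and the hexokinases did not pass the test. *Hk1*, the main brain hexokinase, differed by -0.067 log2 units (adjusted *p* = 0.44, limma) and *Hk2*, the inducible form, by 0.20 (0.17). *Gpi1*, glucose-6-phosphate isomerase, fell by 0.12 (SE 0.042, adjusted *p* = 0.024), a call lost without Tat−/Meth replicate 4 or Tat−/Sal replicate 1 or 3 (range over all left-out arrays -0.14 to -0.10). *Pfkl*, the liver-type subunit, read 11.58, 11.45, 11.85, 11.49 and 11.71 log2 units in Tat−/Sal and 11.82, 11.92, 12.09, 12.08 and 12.01 in Tat−/Meth. The ranges overlapped at a single Tat−/Meth array, and the rise was 0.37 (SE 0.088, 1.29-fold, adjusted *p* = 0.0021). *Pfkp*, the platelet-type subunit, read 12.65, 12.96, 12.81, 12.93 and 12.85 in Tat−/Sal and 12.59, 12.59, 12.73, 12.79 and 12.54 in Tat−/Meth. These ranges overlapped, and the fall was 0.19 (SE 0.069, adjusted *p* = 0.028), lost under 4 of the 14 settings. It was also lost without Tat−/Meth replicate 1, 2 or 5 or Tat−/Sal replicate 2 or 4 (-0.18 to -0.16, adjusted *p* = 0.061 to 0.0779). A second *Pfkp* probe gave 0.10. *Pfkm*, the muscle-type subunit, differed by 0.11 (adjusted *p* = 0.17).

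*Aldoa*, the aldolase of muscle and most tissues, read 18.11, 18, 18.11, 17.95 and 18.17 in Tat−/Sal and 18.36, 18.32, 18.31, 18.27 and 18.29 in Tat−/Meth. Every Tat−/Meth array was above every Tat−/Sal array, and the rise was 0.24 (SE 0.051, 1.18-fold, adjusted *p* = 0.00065). Triose phosphate isomerase (*Tpi1*) differed by -0.11 (adjusted *p* = 0.20). Phosphoglycerate kinase (*Pgk1*), the first ATP-forming step, rose by 0.16 (SE 0.061, adjusted *p* = 0.033), a call lost without Tat−/Meth replicate 2, 3 or 4 or Tat−/Sal replicate 1, 2 or 4 (range over all left-out arrays 0.13 to 0.20). Phosphoglycerate mutase (*Pgam1*) read 16.06, 16.08, 16.15, 16.10 and 16.33 in Tat−/Sal and 16.37, 16.28, 16.32, 16.31 and 16.35 in Tat−/Meth. A single Tat−/Sal array reached into the Tat−/Meth range, and the rise was 0.18 (SE 0.069, adjusted *p* = 0.033). This call was lost without Tat−/Meth replicate 1, 3 or 5 or Tat−/Sal replicate 1, 2, 3 or 4 (0.16 to 0.19, adjusted *p* = 0.0506 to 0.0777).

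*Eno1* gave the largest fall of all 42 genes. It read 17.27, 17.29, 17.44, 17.32 and 17.49 in Tat−/Sal and 16.73, 16.89, 16.69, 16.73 and 16.66 in Tat−/Meth. The groups were fully separate, and the fall was 0.62 (SE 0.063, 1.54-fold, adjusted *p* = 2.39e-07). The neuronal enolase *Eno2* differed by 0.13 (SE 0.075, adjusted *p* = 0.15). *Eno1* has a near-identical retrogene copy with its own probes on the array, and signal from the copy cannot be told apart from that of *Eno1* itself.

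*Pkm*, pyruvate kinase of muscle and brain, makes ATP and pyruvate in the last step of glycolysis. It read 15.47, 15.59, 15.74, 15.57 and 15.72 in Tat−/Sal and 16.02, 16, 16.02, 16.04 and 15.90 in Tat−/Meth. The groups did not overlap, and the rise was 0.38 (SE 0.059, 1.3-fold, adjusted *p* = 3.92e-05). *Ldhb*, the lactate dehydrogenase subunit of the heart-type enzyme, read 16.91, 16.93, 17.09, 16.86 and 17.17 in Tat−/Sal and 16.68, 16.68, 16.64, 16.57 and 16.65 in Tat−/Meth. Each Tat−/Meth value lay below the lowest Tat−/Sal value, and the fall was 0.35 (SE 0.06, 1.27-fold, adjusted *p* = 0.000105). *Ldha*, the muscle-type subunit, differed by 0.026 (SE 0.063, adjusted *p* = 0.75).

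**Figure D2:**
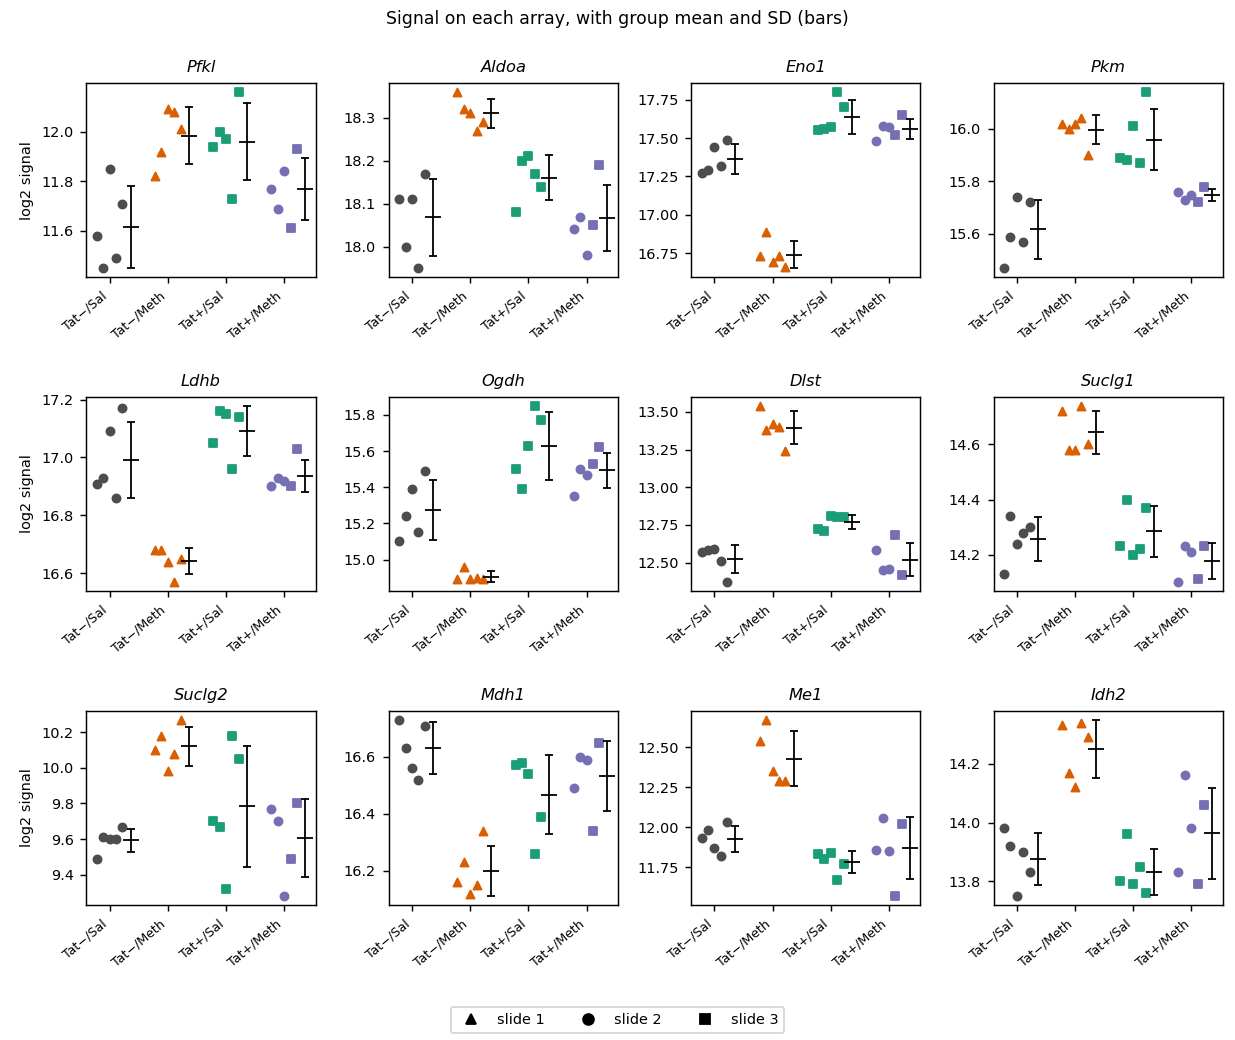
Log2 signal on each array (points, coloured by group, with the marker giving the slide) with the group mean and SD (bars) for 12 of the 42 genes. The 5 Tat−/Meth values of *Dlst*, *Suclg1*, *Suclg2* and *Me1* lie above, and those of *Eno1*, *Ldhb*, *Ogdh* and *Mdh1* below, all 5 Tat−/Sal values.

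Most subunits of the pyruvate dehydrogenase complex differed little. *Pdha1*, the E1 alpha subunit, differed by -0.028 (adjusted *p* = 0.70), and *Dlat*, the E2 subunit, by 0.068 (0.50). *Pdhb*, the E1 beta subunit, read 15.51, 15.41, 15.42, 15.34 and 15.46 in Tat−/Sal and 15.39, 15.18, 15.26, 15.26 and 15.24 in Tat−/Meth. A single Tat−/Meth array reached into the Tat−/Sal range, and the fall was 0.16 (SE 0.058, adjusted *p* = 0.025), with a second probe at -0.28. The call was lost without Tat−/Meth replicate 2 or Tat−/Sal replicate 1 or 5 (-0.16 to -0.14, adjusted *p* = 0.0508 to 0.0668). *Dld*, the E3 subunit that the complex shares with 2-oxoglutarate dehydrogenase, rose by 0.26 (SE 0.062, adjusted *p* = 0.00184), with a second probe at 0.013.

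Of the regulators, the kinase *Pdk3*, which inhibits the complex, rose by 0.25 (SE 0.088, adjusted *p* = 0.023), a call lost without Tat−/Sal replicate 1 or 4 (range over all left-out arrays 0.19 to 0.31). The kinases *Pdk1* and *Pdk2* differed by -0.063 (adjusted *p* = 0.51) and 0.11 (0.17), and the phosphatase *Pdp1*, which reactivates the complex, by 0.12 (0.32). Among the enzymes that feed the cycle or draw from it, pyruvate carboxylase (*Pcx*), an astrocyte enzyme that makes oxaloacetate, rose by 0.20 (SE 0.061, adjusted *p* = 0.012). ATP citrate lyase (*Acly*) differed by 0.031 (0.73). Cytosolic malic enzyme (*Me1*), which makes NADPH and pyruvate from malate, read 11.93, 11.98, 11.87, 11.82 and 12.03 in Tat−/Sal and 12.54, 12.67, 12.35, 12.29 and 12.29 in Tat−/Meth. All Tat−/Meth values were higher than all Tat−/Sal values, and the rise was 0.50 (SE 0.088, 1.42-fold, adjusted *p* = 0.00013). Each of its 3 probes passed, between 0.32 and 0.50.

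In the first part of the cycle, citrate synthase (*Cs*) differed by 0.10 (adjusted *p* = 0.17) and *Aco1*, the cytosolic aconitase that also acts as an iron sensor, by -0.21 (0.18). Mitochondrial NADP-dependent isocitrate dehydrogenase (*Idh2*) rose by 0.37 (SE 0.071, adjusted *p* = 0.000292) and *Idh3a*, the catalytic subunit of the NAD-dependent enzyme, by 0.22 (SE 0.056, adjusted *p* = 0.00306). The cytosolic *Idh1* differed by -0.12 (adjusted *p* = 0.35), and *Idh3b* and *Idh3g*, the other subunits of the NAD-dependent enzyme, by 0.10 (0.33) and 0.11 (0.10).

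By the brightest probe of each gene, the E2 and E1 subunits of the 2-oxoglutarate dehydrogenase complex, which makes succinyl-CoA, moved in opposite directions. *Dlst*, its E2 subunit, read 12.57, 12.58, 12.59, 12.51 and 12.37 in Tat−/Sal and 13.54, 13.38, 13.42, 13.40 and 13.24 in Tat−/Meth. The lowest Tat−/Meth array was far above the highest Tat−/Sal array, and the rise of 0.87 (SE 0.063, 1.83-fold, adjusted *p* = 2.8e-09) was the largest of the 42. *Ogdh*, its E1 subunit, read 15.10, 15.24, 15.39, 15.15 and 15.49 in Tat−/Sal and 14.89, 14.96, 14.89, 14.90 and 14.89 in Tat−/Meth. The groups did not overlap, and the fall was 0.37 (SE 0.085, 1.29-fold, adjusted *p* = 0.00172). A second *Ogdh* probe of similar signal had means of 15.28 in Tat−/Sal and 15.33 in Tat−/Meth. Its difference of 0.051 did not pass, so the fall of *Ogdh* depends on the probe.

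Of succinyl-CoA synthetase, the GTP-forming subunit *Suclg2* read 9.49, 9.61, 9.60, 9.60 and 9.67 in Tat−/Sal and 10.10, 10.18, 9.98, 10.08 and 10.27 in Tat−/Meth. The groups were separate, and the rise was 0.53 (SE 0.129, 1.44-fold, adjusted *p* = 0.00232). The shared alpha subunit *Suclg1* read 14.13, 14.34, 14.24, 14.28 and 14.30 in Tat−/Sal and 14.72, 14.58, 14.58, 14.74 and 14.60 in Tat−/Meth. It was likewise higher on every Tat−/Meth array, by 0.39 (SE 0.057, 1.31-fold, adjusted *p* = 1.99e-05). The ATP-forming subunit *Sucla2* differed by -0.048 (adjusted *p* = 0.47).

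At the end of the cycle, fumarase (*Fh1*) differed by 0.11 (adjusted *p* = 0.20) and mitochondrial malate dehydrogenase (*Mdh2*) by 0.078 (0.36). *Mdh1*, the cytosolic malate dehydrogenase of the malate-aspartate shuttle, read 16.73, 16.63, 16.56, 16.52 and 16.71 in Tat−/Sal and 16.16, 16.23, 16.12, 16.15 and 16.34 in Tat−/Meth. The groups did not overlap, and the fall was 0.43 (SE 0.074, 1.35-fold, adjusted *p* = 0.000103).

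**Figure D3:**
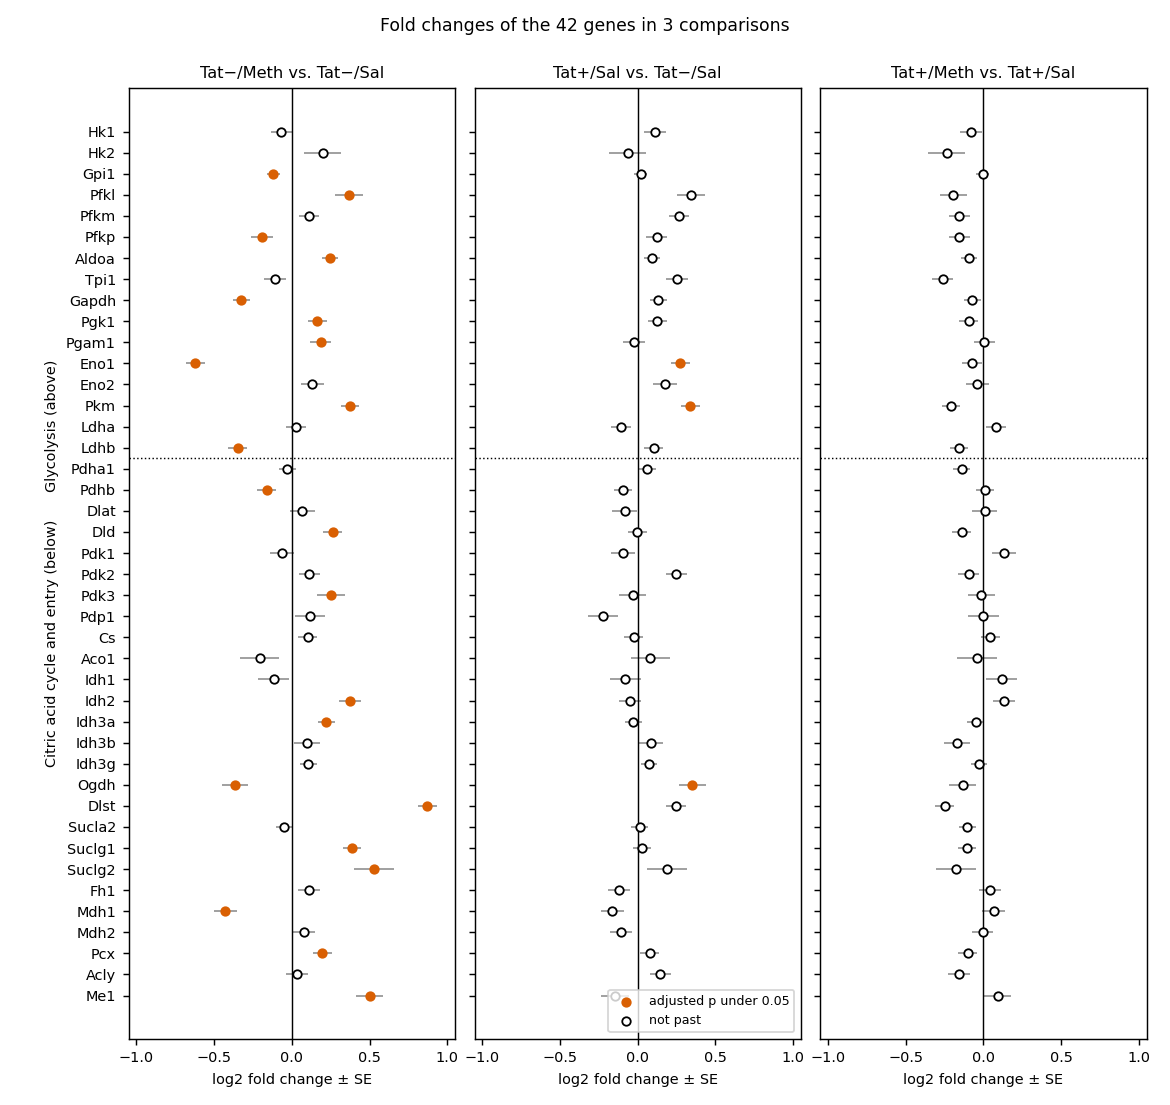
Log2 fold change with its SE (horizontal bars) of the 42 genes in 3 comparisons, with filled points past an adjusted *p* of 0.05. The first panel holds 22 filled points on both sides of 0, from *Eno1* at -0.62 to *Dlst* at 0.87, the second holds *Pkm*, *Eno1* and *Ogdh*, and the third holds none.

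Ratios of partner genes within an array do not change when scaling shifts all its log2 values equally, as percentile and median scaling do. They can change with quantile normalization. They were taken for 10 pairs of isoforms or subunits, chosen after the values were known, and are given as a description with no test, relative to the Tat−/Sal mean. The ratio of *Dlst* to the brightest *Ogdh* probe was 1.24 ± 0.11 log2 units (SD, n = 5) in Tat−/Meth, with the lowest array at 1.1. The highest Tat−/Sal array of this ratio was at 0.22. In Tat+/Sal and Tat+/Meth it was -0.11 ± 0.15 and -0.22 ± 0.17. The ratio of *Eno1* to *Eno2* was -0.75 ± 0.14 in Tat−/Meth, 0.10 ± 0.11 in Tat+/Sal and 0.06 ± 0.10 in Tat+/Meth. Those of *Mdh1* to *Mdh2* and of *Ldhb* to *Ldha* were -0.51 ± 0.13 and -0.37 ± 0.03 in Tat−/Meth. Those of *Suclg2* to *Sucla2* and of *Idh2* to *Idh1* were 0.58 ± 0.15 and 0.49 ± 0.21. In the first 4 of these pairs and in *Suclg2* to *Sucla2*, no Tat−/Meth array overlapped the Tat−/Sal arrays. In *Idh2* to *Idh1* and in the remaining 4 pairs they overlapped: the Tat−/Meth ratio was -0.27 ± 0.08 for *Hk1* to *Hk2*, 0.26 ± 0.17 for *Pfkl* to *Pfkm*, -0.30 ± 0.15 for *Pfkp* to *Pfkm* and -0.14 ± 0.06 for *Pdk2* to *Pdk3*. The last of these stood apart in Tat+/Sal, where it was 0.28 ± 0.09, with the lowest array at 0.20 and the highest Tat−/Sal array at 0.10. Such a ratio shows unequal change of the pair, not which gene changed. All Tat−/Meth ratios come from slide 1, so group and slide cannot be told apart in them either.

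*Gapdh*, the glycolytic enzyme that the study used as a qPCR reference, had 7 probes that did not move together. The brightest read 18.36, 18.39, 18.48, 18.34 and 18.53 in Tat−/Sal and 18.01, 18.13, 18.09, 18.05 and 18.19 in Tat−/Meth. These groups did not overlap, and the fall was 0.33 (SE 0.055, 1.25-fold, adjusted *p* = 8.81e-05). The second brightest probe was higher in Tat−/Meth, at 17.87 to 17.98 against 17.34 to 17.51, a log2 difference of 0.50 (adjusted *p* = 1.74e-06 when every probe was tested). The other 5 probes ranged from -0.21 to 0.17, and none passed. With the mean of its probes *Gapdh* gave 0.039 (adjusted *p* = 0.64), and with quantile normalization of the brightest probe 0.018 (0.72), so no direction can be given for the gene. *Gapdh* has many processed pseudogenes in the mouse genome, and the sequences of the probes were not used here.

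Over the 20 arrays, the deviations of *Gapdh* from its group means were most like those of *Eno2* (Pearson r = 0.81), *Ogdh* (0.63) and *Tpi1* (0.60) among the 42 genes. The median r was 0.33 between glycolysis genes, 0.25 between the genes of the other list and 0.22 across the lists. All points share the array and its scaling, so these values are given as a description.

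**Figure D4:**
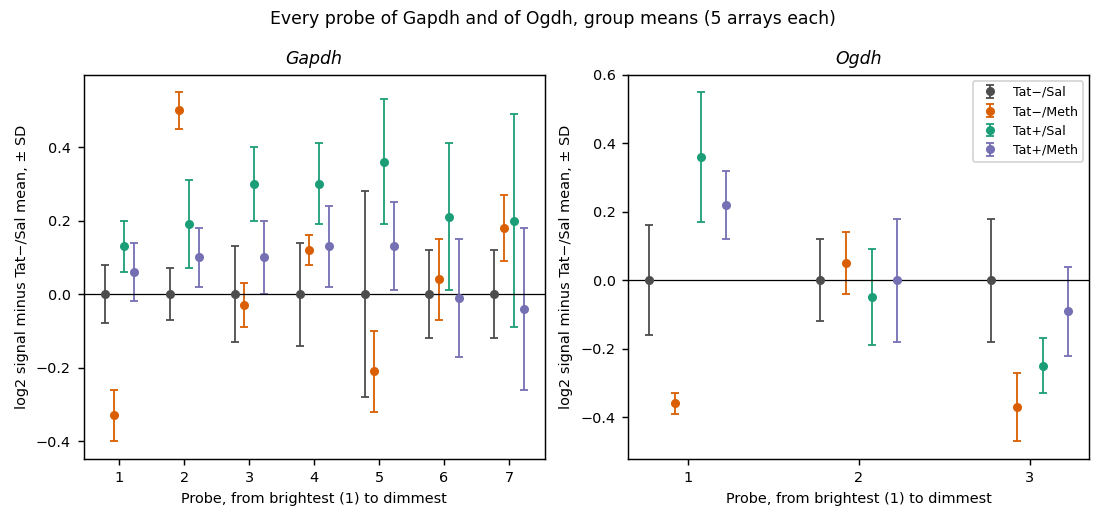
Group mean minus the Tat−/Sal mean, with the SD of the 5 arrays (bars), in log2 units for the 7 *Gapdh* probes and the 3 *Ogdh* probes in order of brightness. In Tat−/Meth the *Gapdh* probes run from -0.33 to 0.50, and in Tat+/Sal all 7 lie above 0, while the 3 *Ogdh* probes differ in sign.

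The probes of other genes also differed. In Tat−/Meth vs. Tat−/Sal, 12 of the 42 genes had more than 1 tested probe, and the probes of 7 had a common sign. *Ogdh* had 3 probes, at -0.37 (brightest), 0.051 and -0.38. Among the genes with a common sign were *Me1* and *Pdhb*, each with all probes past the test, and *Ldha*, whose probes ran from 0.026 to 0.29 with 1 of 3 past it.

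In Tat+/Sal vs. Tat−/Sal, which asks what Tat changed without Meth, 3 of the 42 genes passed and all 3 were higher in Tat+/Sal, against 1.4% of all genes past the test and 0.762% higher. None of the 42 exceeded 2-fold, as 0.0199% of all genes did. They were *Pkm*, *Eno1* and *Ogdh*. Of the 16 glycolysis genes, 13 had a log2 fold change above 0, against 7087 of all 15098 genes. The glycolysis median was 0.12, against -0.013 for all genes. The median of the 26 other genes was -0.014.

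*Pkm* read 15.89, 15.88, 16.01, 15.87 and 16.14 in Tat+/Sal, above each of the 5 Tat−/Sal values given above. The rise was 0.34 (SE 0.059, 1.27-fold, adjusted *p* = 0.0185). *Eno1* read 17.55, 17.56, 17.57, 17.80 and 17.70 in Tat+/Sal, also above all Tat−/Sal values, a rise of 0.28 (SE 0.063, 1.21-fold, adjusted *p* = 0.0386). *Ogdh* read 15.50, 15.39, 15.63, 15.85 and 15.77 in Tat+/Sal. Its ranges overlapped at 1 array, and the rise was 0.35 (SE 0.085, 1.28-fold, adjusted *p* = 0.0479), while its other probes gave -0.047 and -0.26.

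Several genes fell short of the limit. *Pfkm* had a log2 difference of 0.27 (adjusted *p* = 0.0511), *Pfkl* of 0.34 (0.056), *Tpi1* of 0.25 (0.0663), *Dlst* of 0.24 (0.0566) and *Pdk2* of 0.25 (0.0649). The 7 *Gapdh* probes were all higher in Tat+/Sal, by 0.13 to 0.36, with 1 past the test when every probe was tested. *Pdp1* had the lowest value of the 42, at -0.22 (adjusted *p* = 0.20).

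The saline groups lay on different slides, linked only through the Tat+/Meth arrays on both. With slide as a fixed block none of the 42 genes passed, nor did any of the 15098, and with median scaling, no scaling or normexp background correction the count for the 42 was also 0. Of all genes, 0.0132%, 0.0662% and 0% passed under these last 3 settings in turn. None of the 3 calls held without each array in turn. That of *Pkm* was lost without Tat−/Sal replicate 1, 2 or 4 or Tat+/Sal replicate 5 (0.30 to 0.33, adjusted *p* = 0.0619 to 0.0879). That of *Eno1* was lost without Tat−/Sal replicate 1, 2 or 4, Tat+/Sal replicate 3, 4 or 5, Tat−/Meth replicate 3 or 4 or Tat+/Meth replicate 2 (0.23 to 0.29, adjusted *p* = 0.0502 to 0.13). For *Ogdh* it was lost without the same 6 saline arrays, Tat−/Meth replicate 1, 2, 3 or 4 or Tat+/Meth replicate 1, 2, 3 or 4 (0.30 to 0.35, adjusted *p* = 0.0523 to 0.16). On slides 2 and 3 the Tat+/Meth arrays overlapped for *Pkm* (15.73 to 15.76 and 15.72 to 15.78) and *Eno1* (17.48 to 17.58 and 17.52 to 17.65), but not for *Ogdh* (15.35 to 15.50 and 15.53 to 15.62).

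Meth in Tat+ mice was tested in Tat+/Meth vs. Tat+/Sal, and none of the 42 genes passed in limma, nor any of the 15098 (0%). At an unadjusted *p* of 0.05, 10 of the 42 and 1837 of all genes passed, and the methods' t-test also called 0. The 42 log2 differences ran from -0.26 for *Tpi1* (adjusted *p* = 0.22) to 0.13 for *Idh2* (0.45). Of the 42, 11 were above 0, against 7704 of all 15098 genes. The median was -0.077 for the 42 and 0.003 for all genes. *Dlst* read 12.58, 12.45, 12.46, 12.68 and 12.42 in Tat+/Meth and 12.72, 12.71, 12.81, 12.80 and 12.80 in Tat+/Sal. These groups did not overlap, but the difference of -0.25 (SE 0.063) had an adjusted *p* of 0.22. *Pkm*, at 15.76, 15.73, 15.75, 15.72 and 15.78 in Tat+/Meth, was also below every Tat+/Sal array, by 0.21 log2 units (SE 0.059, adjusted *p* = 0.22). Within slide 3, which holds 2 Tat+/Meth arrays and all Tat+/Sal arrays, the differences were -0.22 for *Dlst* and -0.20 for *Pkm*.

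Tat+/Meth vs. Tat−/Sal likewise gave none of the 42 genes in limma and none of all genes (0%), with 7 of the 42 and 1177 of all genes at an unadjusted *p* of 0.05. The methods' t-test called 0. The largest differences were -0.30 for *Hk2* (SE 0.118), 0.22 for *Ogdh* (SE 0.085), -0.22 for *Pdp1* (SE 0.097) and 0.20 for *Eno1* (SE 0.063), each with an adjusted *p* of 0.64. *Eno1* read 17.48, 17.58, 17.57, 17.52 and 17.65 in Tat+/Meth, with 4 of 5 arrays above all Tat−/Sal arrays. Within slide 2 the difference of *Eno1* was 0.18 and that of *Hk2* -0.41.

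Tat+/Meth vs. Tat−/Meth uses the same Tat−/Meth arrays as the first comparison, so its values are not independent of those above. Here 6 of the 42 genes were higher and 17 lower in Tat+/Meth, against 54.4% of all genes past the test, 16% higher and 38.5% lower. None of the 42 exceeded 2-fold, which 7.23% of all genes did. Glycolysis had 4 higher and 5 lower, and the other list 2 higher and 12 lower. The medians were 0.0020 and -0.16 against -0.15 for all genes. The counts were 3 higher and 22 lower with quantile normalization, 1 and 10 with median scaling, and 20 and 1 without scaling. Of all genes, 56.5%, 39.3% and 37.1% passed in turn.

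The genes higher in Tat+/Meth were *Eno1* (0.82, SE 0.063, adjusted *p* = 5.48e-09), *Ogdh* (0.58, SE 0.085), the brightest *Gapdh* probe (0.39, SE 0.055), *Mdh1* (0.33, SE 0.074), *Ldhb* (0.29, SE 0.06) and *Gpi1* (0.14, SE 0.042). The second brightest *Gapdh* probe went the other way, at -0.40, and the lowest of 3 *Ogdh* probes was at -0.054. Among the genes lower in Tat+/Meth, *Dlst* fell by 0.88 (SE 0.063, adjusted *p* = 2.44e-09) and *Me1* by 0.56 (SE 0.088), and *Suclg2*, *Hk2*, *Suclg1* and *Dld* fell by 0.40 to 0.51. Of the genes just named as lower, *Hk2* was the only one whose difference in Tat−/Meth vs. Tat−/Sal had not passed. *Pdp1*, *Mdh2* and *Fh1*, also lower in Tat+/Meth at -0.34, -0.19 and -0.19, had likewise not passed there. *Me1* read 11.86, 12.06, 11.85, 11.57 and 12.02 in Tat+/Meth, below all Tat−/Meth arrays and overlapping the Tat−/Sal arrays.

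The difference between the effects of Meth with and without Tat was tested as the interaction, which again rests on the Tat−/Meth arrays. It is given as the log2 change with Meth in Tat+ mice minus that in Tat− mice, so its sign is not the size of an effect. Of the 42 genes, 3 had a positive and 13 a negative difference, against 36% of all genes past the test, 12.4% positive and 23.6% negative. The counts were 2 positive and 18 negative with quantile normalization, 0 and 5 with median scaling, and 21 and 1 without scaling, where the median of all genes moved from -0.14 to -0.15, -0.37 and 0.35. Of all genes, 37.8%, 17% and 39.4% passed in turn. *Dlst*, at 0.87 in Tat− and -0.25 in Tat+ mice, had the largest difference, -1.12 (SE 0.089, adjusted *p* = 2.72e-08), and was the only gene of the 42 above 2-fold, which 7.44% of all genes were. *Suclg2* followed at -0.70 (SE 0.182), *Pkm* at -0.58 (SE 0.083) and *Pfkl* at -0.56 (SE 0.125). The positive differences were those of genes that were lower with Meth in Tat− mice. *Eno1* changed by -0.62 in Tat− and -0.074 in Tat+ mice, a difference of 0.55 (SE 0.088). *Mdh1* changed by -0.43 and 0.065, a difference of 0.50 (SE 0.104). The brightest *Gapdh* probe changed by -0.33 and -0.073, a difference of 0.25 (SE 0.077), but the other 6 *Gapdh* probes had negative differences, down to -0.60, and 2 of them passed when every probe was tested. *Hk2* (0.20 in Tat− and -0.24 in Tat+ mice) and *Pfkm* (0.11 and -0.16) passed with changes of opposite sign, none of which passed on its own.

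Other genes of the pathways were counted from lists of transporters, minor isoforms and neighbouring enzymes. In Tat−/Meth vs. Tat−/Sal, 2 of 20 tested genes of glucose transport, lactate transport and minor glycolytic isoforms were higher and 2 lower, as were 8 and 3 of 27 genes of pyruvate transport, succinate dehydrogenase, shuttles and lipoate synthesis, and 3 and 1 of 8 pentose phosphate genes. Beside the 50.3% of all genes past the test, these shares are lower in the first 2 lists and about equal in the pentose phosphate list. In the first list the glucose transporters *Slc2a1* (0.55, SE 0.171, adjusted *p* = 0.0121) and *Slc2a4* (0.50, SE 0.135, adjusted *p* = 0.00484) rose, and *Slc16a1* and the brain aldolase *Aldoc* (-0.36, SE 0.079, adjusted *p* = 0.00108) fell. *Slc2a1*, *Slc2a4* and *Aldoc* were named after their values were seen. In the second list the largest passing rise was that of *Slc25a1* (0.736, SE 0.076) and the largest passing fall that of *Gpd2* (-0.445, SE 0.089). In the pentose phosphate list they were those of *Rpe* (0.361, SE 0.072) and *Pgls* (-0.452, SE 0.14). *Slc16a1*, the monocarboxylate transporter of lactate and pyruvate, was the only one past 2-fold. Its signal was 9.19 ± 0.26 (SD, n = 5) in Tat−/Sal and 7.24 ± 0.21 in Tat−/Meth, a fall of 1.95 log2 units (SE 0.391, 3.86-fold, adjusted *p* = 0.000465), with no overlap. It was 9.80 ± 1.15 in Tat+/Sal and 9.73 ± 0.56 in Tat+/Meth, and the latter exceeded Tat−/Meth by 2.49 (SE 0.391, adjusted *p* = 3.54e-05). None of the other genes of these 3 lists passed in Tat+/Sal vs. Tat−/Sal, where 12 had an unadjusted *p* under 0.05 in limma. These were 3 of 20, 8 of 27 and 1 of 8 genes in turn, beside 3093 of all 15098 genes.

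Markers of cell types moved in the same comparison as the 42 genes. In Tat−/Meth vs. Tat−/Sal, where 35% of all genes were higher and 15.3% lower, 5 of 9 astrocyte markers were higher and none lower, and their summed signal was 16.75 to 17.03 log2 units in Tat−/Meth against 16.53 to 16.70 in Tat−/Sal, 16.49 to 16.74 in Tat+/Sal and 16.51 to 16.68 in Tat+/Meth. The summed signal of 8 microglia markers was 16.87 to 17.00 in Tat−/Meth and 17.43 to 17.80 in Tat−/Sal. Of these 2 were higher (*C1qa* at 0.363, *C1qb* at 0.355) and 2 lower (*Itgam* at -1.07, *P2ry12* at -0.348). The summed signal of 8 neuron markers was 18.06 to 18.23 against 18.27 to 18.53. Of these 2 were higher (*Nefl* at 0.362, *Map2* at 0.239) and 1 lower (*Snap25* at -0.74). A sum is weighted to the brightest markers and need not follow most of them. The median log2 fold change was -0.028 for microglia markers, with 3 of 8 above 0, and 0.143 for neuron markers, with 6 of 8 above 0. The summed signals of 10 medium spiny neuron markers (19.92 to 20.02 against 19.95 to 20.18) and 8 oligodendrocyte markers (18.11 to 18.48 against 17.94 to 18.34) overlapped. Of the former 2 were lower, *Penk* at -0.30 and *Rgs9* at -0.24 log2 units, and of the latter 2 were higher, *Cnp* at 0.32 and *Mbp* at 0.16. Of the other lists, 2 of 7 endothelial markers and 1 of 4 red blood cell markers were higher, 1 of 5 cortical excitatory markers (*Neurod2*) was lower, and none of 6 choroid plexus markers passed. In Tat+/Sal vs. Tat−/Sal no marker of the 9 lists passed. Their part in the results for the 42 genes was not tested.

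**Figure D5:**
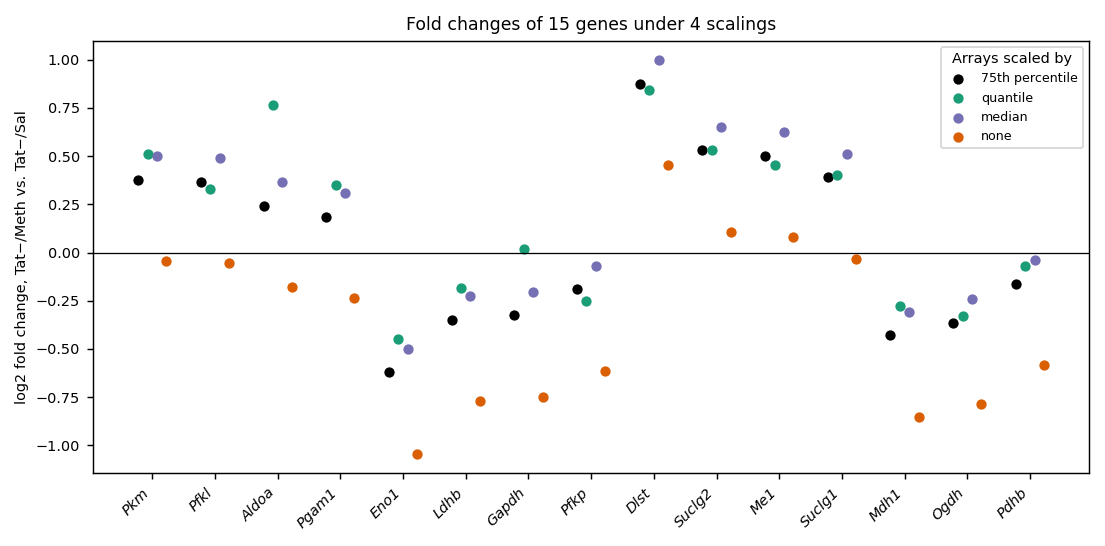
Log2 fold change in Tat−/Meth vs. Tat−/Sal of 15 genes under 4 ways of scaling the arrays (75th percentile, quantile, median and none). *Dlst* stays above 0 and *Eno1*, *Ldhb*, *Mdh1* and *Ogdh* below 0 in all 4, while *Pkm*, *Pfkl*, *Aldoa*, *Pgam1* and *Suclg1* fall below 0 without scaling and *Gapdh* rises above 0 with quantile normalization.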

How the data were processed

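Total RNA of 20 mouse brain samples had been hybridised by the authors to 1-colour Agilent arrays. Each deposited file held the spot intensity from Feature Extraction 10.7.3.1, as the authors' scanner software wrote it, with 62976 spots. A build or annotation of the probes beyond the file headers is not given in the sources used here. The labels and file headers give Cy3 and an Agilent scanner, whereas the methods name another dye and scanner. The deposited series matrix held the same intensity after background subtraction, plus an array-specific constant, within 1% or 0.1 for at least 99.8% of single-spot probes, and served as an alternative.

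Outlier spots (4278) were left out, log2 processed signal was averaged per probe, and arrays were brought to a common 75th percentile. The brightest probe stood for a gene, and genes whose mean reached 6 log2 units in at least 1 group were tested. Groups came from the labels, and limma 3.58.1 (R 4.3.3) was fitted to all 20 arrays with 1 mean per group. *p* values were adjusted by Benjamini–Hochberg over 15098 genes, and a gene passed at 0.05; changes above 2-fold were counted beside it. The fit was tested on simulated data. The number of arrays limits the precision, and the *p* values measure the spread between mice within a group.

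The 42 genes and all lists were chosen with earlier results of these data known. Any of the 42 could be named. Values on every array were given for the 4 largest rises and falls past the test in Tat−/Meth vs. Tat−/Sal per pathway, for genes past it in a comparison without Tat−/Meth, and for *Gapdh*. Of other pathway genes those past 2-fold were named, or else the largest passing change in each direction. Marker lists covered neurons, medium spiny neurons, cortical excitatory neurons, astrocytes, oligodendrocytes, microglia, endothelial cells, choroid plexus and red blood cells. Alternatives were quantile, median and no scaling, normexp with an offset of 50, the matrix values, other filters and probe rules, slide as a fixed or random block, a replicate block, a variance trend, only the groups compared, the methods' t-test, stricter limits (adjusted *p* of 0.01 and 3-fold) and leaving out each array.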

Additional observations from a re-analysis of the deposited data

Results flagged for a closer look

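Among 15 genes in 4 groups (60 sets of 5 arrays, of which chance flags about 1 in 20), 4 arrays stood apart from the others of their group. *Pkm* in Tat−/Meth replicate 5 read 15.90 against 16 to 16.04. *Pgam1* in Tat+/Meth replicate 4 read 15.85 against 16.14 to 16.24. *Ldhb* in Tat+/Meth replicate 5 read 17.03 against 16.90 to 16.93, and *Ogdh* in Tat−/Meth replicate 2 read 14.96 against 14.89 to 14.90.

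For 16 genes the effect of Meth differed between Tat+ and Tat− mice by the interaction in limma (adjusted *p* under 0.05), with the Tat−/Meth arrays alone on their slide. Values are the log2 change with Meth in Tat+ mice minus that in Tat− mice, and their sign is not the size of an effect. The difference was negative for *Hk2* (-0.43), *Pfkl* (-0.56), *Pfkm* (-0.27), *Aldoa* (-0.34), *Pgk1* (-0.26) and *Pkm* (-0.58) of glycolysis. It was also negative for *Dld* (-0.40), *Idh3a* (-0.27), *Dlst* (-1.12), *Suclg1* (-0.50), *Suclg2* (-0.70), *Pcx* (-0.30) and *Me1* (-0.41). It was positive for *Gapdh* (0.25, brightest probe, with the other 6 probes negative), *Eno1* (0.55) and *Mdh1* (0.50), which were lower with Meth in Tat− mice.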

How the results depend on the processing

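For glycolysis and the citric acid cycle list in turn, the number of genes past the test moved by over 1.5 times as follows. With median scaling it was 2 and 9 for Tat+/Meth vs. Tat−/Meth, 3 and 5 for Tat−/Meth vs. Tat−/Sal, in the interaction 2 and 3, and 0 and 0 for Tat+/Sal vs. Tat−/Sal. Of all genes, 39.3%, 28.1%, 17% and 0.0132% passed in turn with median scaling. Above 2-fold the number for the 2 lists was 0 and 0 in those comparisons, save 1 cycle gene in the interaction, and 0 under the methods' limits. In Tat+/Sal vs. Tat−/Sal (2 and 1 as reported), it was 0 and 0 without scaling, with normexp, with slide as a fixed block, with only the 2 groups and with the methods' t-test. There it was 1 and 0 with the matrix values, no signal limit or every probe, 6 and 4 with slide as a random block (1 of the latter lower), 5 and 2 with a trend in the prior variance, and, for the cycle list alone, 3 with quantile normalization and 0 with the mean of probes or the filter on background. Of all genes, 15.4% passed there with the random block, 2.2% with the variance trend and 3.22% with quantile normalization, against 1.4% as reported. In the interaction, the cycle list had 13 genes without scaling (12 higher, 1 lower) and 13 with slide as a random block (2 higher, 11 lower). Of all genes, 39.4% and 46.9% passed in the interaction under these settings, against 36% as reported.

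Leaving out each array gave 7 to 10 glycolysis and 12 to 17 cycle genes for Tat+/Meth vs. Tat−/Meth, 7 to 11 and 10 to 12 for Tat−/Meth vs. Tat−/Sal, 0 to 5 and 0 to 3 in Tat+/Sal vs. Tat−/Sal, and 5 to 8 and 8 to 10 in the interaction (5 without Tat+/Meth replicate 1). The count of 0 for both lists in Tat+/Sal vs. Tat−/Sal came without Tat−/Sal replicate 1, 2 or 4 or Tat+/Sal replicate 5, and those of 5 and 3 without Tat−/Sal replicate 3. It gave 0 in the comparisons that had 0. Of the genes past the test, 19 of 23, 16 of 22, 0 of 3 and 13 of 16 stayed past it in all of these.

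These log2 fold changes changed sign. Without scaling, in Tat−/Meth vs. Tat−/Sal *Pkm* was -0.045, *Pfkl* -0.053, *Aldoa* -0.18, *Pgam1* -0.24 and *Suclg1* -0.032, and *Gapdh* was 0.018 with quantile normalization and 0.039 with the mean of probes. Without scaling, in Tat+/Sal vs. Tat−/Sal *Aldoa* was -0.057, *Ldhb* -0.044, *Gapdh* -0.014, *Pfkp* -0.025 and *Suclg1* -0.12. There *Ldhb* was -0.0060 with quantile normalization, *Pgam1* 0.048 with median scaling, and 0.11 with slide as a fixed block. Leaving out each array moved *Pgam1* between -0.048 and 0.022 there (above 0 without Tat−/Sal replicate 5) and *Suclg1* between -0.0050 and 0.049 (below 0, also at -0.0030, without Tat−/Sal replicate 1 or Tat+/Sal replicate 2). The cause was not tested.

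Whether replicate numbers pair the samples cannot be decided from these values. Of 30 same-number pairs of arrays, 8 had a correlation of deviations above 0.1. The median was 0.043 for same-number pairs and -0.0135 for other pairs, and 8 of 20 arrays correlated best with their own number. With the replicate block, 5 glycolysis and 2 cycle genes passed in Tat+/Sal vs. Tat−/Sal, against 2 and 1 as reported. Of all genes 3.66% passed there, against 1.4% without the block. In Tat−/Meth vs. Tat−/Sal, 14 were higher and 8 lower, as reported. All 42 genes were well above background, but some read low, such as *Hk2* at 7.24 to 7.66 on the Tat+/Meth arrays of slide 2. The effect of signal level on these values was not tested.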
